A study of Homo sapiens with 36 samples.

Results

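Promoters that carried a trimethylated histone H3 lysine 4 (H3K4me3) peak and an RNA polymerase II (pol II) peak in A549 cells but neither in B2B cells are described here. A member was an A549 H3K4me3 peak on chromosomes 1 to 19 that overlapped an A549 pol II peak, lay within 1 kb of a protein-coding start site and had no B2B H3K4me3 peak and no B2B pol II peak within 1 kb. This rule chose 1464 of 29705 A549 H3K4me3 peaks on those chromosomes. Of the 11990 A549 peaks that met the A549 conditions of the rule, 12.2% were chosen, a share that the rule itself fixed. Each member peak was assigned to its nearest coding start, which gave 1420 A549-only promoters of 1318 genes, because 44 promoters held more than 1 member peak. A promoter of this kind was defined by calls in peak lists, so that a signal too weak for the B2B lists would count as no mark.

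The study measured histone marks, pol II and bound proteins by chromatin immunoprecipitation and sequencing (ChIP-seq) in A549 and in BEAS-2B, called B2B. A549 is a human lung adenocarcinoma line and B2B is a non-cancerous bronchial epithelial line immortalized with SV40 virus genes, and both were grown in medium with serum and were not treated. Per the study, both replicates of a target (n = 2) were pooled before peak calling, so no replicate error can be given for any value. Each condition is a single cell line, so that a difference between lung cancer and non-cancerous epithelium cannot be told apart from a difference between these lines. Brackets after a share hold its Wilson 95% interval, and those after a difference hold its Newcombe 95% interval, and both cover counting error only. The lists held from 8563 peaks for JunB in B2B to 61225 for CTCF in B2B, and the number of reads behind them was not given in the sources used here. The A549 lists of H3K27ac and Med1 and the B2B list of Med1 ended before the last chromosomes, so these targets were compared on chromosomes 1 to 12.

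H3K4me3 lies on the nucleosomes that flank active start sites, and pol II gathers where transcription begins. Acetylated H3 lysine 27 (H3K27ac) marks active promoters and enhancers, and Med1 is a subunit of Mediator, the complex that links bound transcription factors to pol II. Jun, JunB and JunD are subunits of AP-1, a dimeric factor that binds the heptamer TGAGTCA and its reverse complement TGACTCA, while CTCF and the cohesin subunit Rad21 hold chromatin loops. Many vertebrate promoters lie in CpG islands, stretches that have kept their CG dinucleotides and are marked in many cell types, whereas promoters poor in CG tend to belong to genes used in few tissues.

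To show the range of sequence among the A549-only promoters, the 150 bases upstream of the start are given for MGAT4A, a CpG-rich member, and for ABCC2 and AKR1B10, which are CpG-poor. These stretches were read from hg38, are printed 5′ to 3′ on the strand of the gene and are annotated as intergenic, and CG dinucleotides are in capitals. MGAT4A, which encodes a Golgi enzyme that branches N-glycans, lies at chr2:98731133-98731282 on the minus strand. ABCC2, an exporter of conjugated compounds, lies at chr10:99782490-99782639 on the plus strand. AKR1B10, an aldo-keto reductase that acts on aldehydes and retinal, lies at chr7:134527417-134527566 on the plus strand.
MGAT4A: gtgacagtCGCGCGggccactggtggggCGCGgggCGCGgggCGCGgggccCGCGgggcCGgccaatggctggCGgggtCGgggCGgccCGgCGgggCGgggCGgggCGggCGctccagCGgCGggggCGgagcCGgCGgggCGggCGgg
ABCC2: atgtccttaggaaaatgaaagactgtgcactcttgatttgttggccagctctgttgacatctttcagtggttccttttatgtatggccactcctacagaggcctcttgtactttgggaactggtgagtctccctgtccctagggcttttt
AKR1B10: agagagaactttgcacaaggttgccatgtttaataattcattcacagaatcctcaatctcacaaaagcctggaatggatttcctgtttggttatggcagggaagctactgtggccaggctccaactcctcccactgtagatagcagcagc
The stretches hold 28 CG dinucleotides for MGAT4A and 0 for both ABCC2 and AKR1B10. In A549 the H3K4me3 peak at these starts was 2046 bp wide at MGAT4A, 4210 bp at ABCC2 and 8159 bp at AKR1B10.

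The next set shows the sequence under the strongest Jun-family binding at A549-only promoters. Members with peaks of Jun, JunB and JunD in A549 were ordered by the sum of their fold enrichments, and the sequence within 50 bp of the A549 Jun summit is given for PPARG, ITGB5 and SRI. For LARP1 a shorter stretch around the heptamer next to its start is given. Capitals mark TGAGTCA or TGACTCA on either strand. LARP1, an RNA-binding regulator of translation, is shown at chr5:154682975-154683001 on the plus strand, in an exon. PPARG, a nuclear receptor of lipid metabolism, is shown at chr3:12308599-12308699 on the plus strand, in an intron of that gene. ITGB5, an integrin beta subunit, is shown at chr3:124878735-124878835 on the minus strand, in an intron of ITGB5. SRI, which encodes the calcium-binding protein sorcin, is shown at chr7:88227036-88227136 on the minus strand, in an intron of an annotated gene without a symbol.
LARP1: cgccagaggcTGAGTCAtcgctgctgc
PPARG: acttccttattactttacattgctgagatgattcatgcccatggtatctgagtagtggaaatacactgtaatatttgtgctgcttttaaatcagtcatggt
ITGB5: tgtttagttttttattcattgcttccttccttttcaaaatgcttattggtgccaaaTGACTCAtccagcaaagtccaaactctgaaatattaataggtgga
SRI: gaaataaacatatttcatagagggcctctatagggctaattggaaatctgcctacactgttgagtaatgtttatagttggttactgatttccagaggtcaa
Of the 3 windows around a summit, that of ITGB5 holds the heptamer and those of PPARG and SRI do not, while the LARP1 stretch was chosen to show one. Within 100 bp of the summit, a wider window than those printed, 38.8% of A549 Jun peaks at members held the heptamer. Around the starts of all A549 coding promoters, which are not Jun summits, 2.07% held it within 100 bp.

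The values that chose the members are given first, as a description. The H3K4me3 fold enrichment, which is the pileup at the summit over the local background of the peak caller, had a median of 23.7 at members, with a range from 2.39 to 55.1. At the 8218 shared peaks, which had both marks in both lines, the median was 35.6. Member peaks had a median width of 1380 bp and ran from 169 to 10541 bp, and shared peaks had a median width of 2288 bp. The pol II fold enrichment at members had a median of 14.0 and reached 116, against a median of 53.2 at shared peaks. Member peaks thus were weaker and narrower than shared ones as a set, and their ranges overlapped. The start itself lay inside the peak for 84.2% of members and 91.9% of shared peaks.

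**Figure D1:**
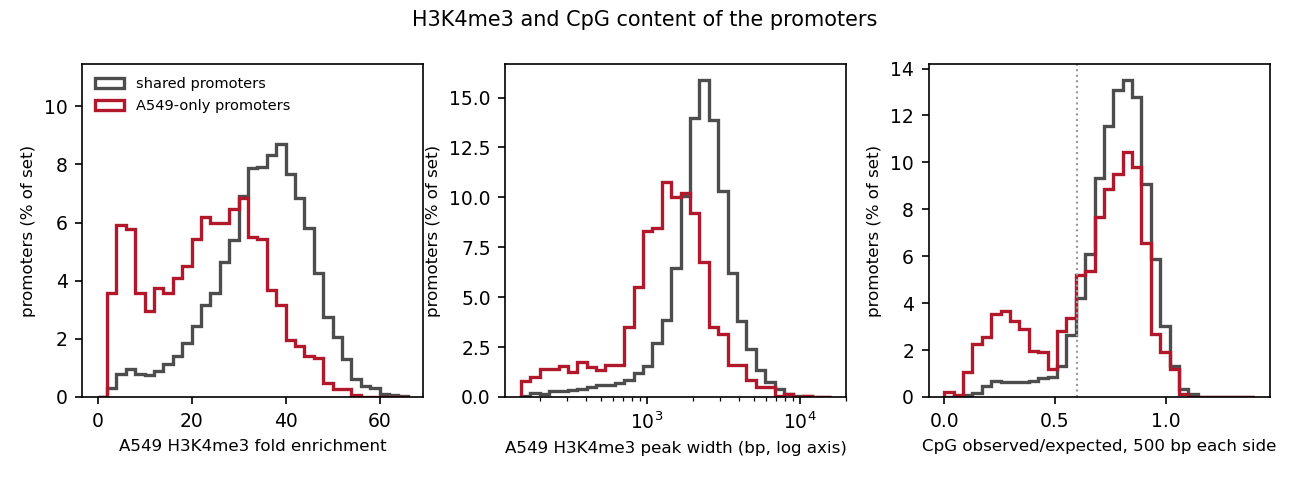
Histograms, in percent of each set, of A549 H3K4me3 fold enrichment, peak width in bp on a log axis and CpG ratio of A549-only (red) and shared (grey) promoters, with a dotted line at a CpG ratio of 0.6. The A549-only promoters reach to lower fold enrichments, with a median of 23.7 over member peaks against 35.6 over shared peaks. They also reach to lower CpG ratios, with a median over promoters of 0.728 against 0.793.

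Members just inside and just outside the 1 kb distance had similar A549 values. Just inside lay peaks at RPS24, 1001 bp from the nearest B2B peak with a fold enrichment of 3.88, at IGFBP3, 1019 bp away with 7.57, and at SPX, 1033 bp away with 7.27. Just outside lay peaks at GCLC, 942 bp away with 5.25, at CLIC1, 975 bp away with 3.40, and at HERPUD1, 998 bp away with 3.61. Most members were far from this edge. Of the 1420 promoters, 1314 had no B2B H3K4me3 or pol II peak within 5 kb of the start, and 617 had none within 50 kb. The median distance from the start to the nearest B2B peak of either kind was 40.5 kb. The mirrored rule, which asks for both marks in B2B and neither in A549, chose 236 of 11028 B2B peaks, or 2.14%. The B2B lists were shorter, with 26112 H3K4me3 and 25234 pol II peaks against 32801 and 45938 in A549. With lists of equal length the rule for members chose 1096 peaks instead of 1464, and no such count is given for the mirrored rule.

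The local background differed between the lines for several targets at these starts, and it sets how tall a peak must be to be called. Pileup and background were solved from the deposited fold enrichment and p-value, and every solved pileup lay within 0.02 of a whole read. The median background of the A549 peaks at members was 3.28 reads for H3K4me3 and 2.48 reads for pol II, under median pileups of 111 and 53.0 reads. The rule left no B2B H3K4me3 or pol II peak within 1 kb of a member peak, and 5 of the 1420 starts assigned to them had one within 1 kb. At shared promoters the median backgrounds of the B2B peaks were 32.1 reads for H3K4me3 and 31.4 reads for pol II. B2B backgrounds at members could be read from other targets, namely 29.0 reads for H3K27ac, where A549 had 2.26, and 16.5 reads for Rad21. B2B H3K27ac peaks over 1 kb from any coding start had a median background of 6.45 reads, so the background under B2B H3K27ac peaks was higher at the starts. For B2B Med1 it was 2.27 reads at members and 2.09 reads over 1 kb from any coding start. The Rad21 value was borrowed as a limit, because H3K4me3 and pol II had too few B2B peaks at members to read their own. Among B2B peaks with a background of at least 16.5 reads, the lowest pileup was 35 reads for H3K4me3 and for pol II. The 5th percentile was 64 reads for H3K4me3 and 62 reads for pol II. The A549 pileup was under 35 reads at 189 of the 1420 promoters (13.3%) for H3K4me3 and at 486 (34.2%) for pol II. These shares take the lowest such pileup as the limit, and the median A549 pol II pileup of 53.0 reads lay under the 5th percentile. They hold only if the B2B background of H3K4me3 and pol II at members was like that of Rad21, which is not known. Across B2B targets outside the rule, median backgrounds at members ran from 2.27 reads for Med1 to 29.0 for H3K27ac, read only where a peak was called. Pileups were not adjusted for the depth of the lists, which is unknown. The part of the background in the choice of members and in the B2B shares below was not tested.

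Individual members covered several kinds of gene. The strongest H3K4me3 peak stood at MALL, which encodes a membrane raft proteolipid, with a fold enrichment of 55.1 and a width of 3357 bp. MALL also had a pol II fold enrichment of 33.9 and an H3K27ac fold enrichment of 90.8 in A549, and in B2B only a CTCF peak of 10.6. IRX5, an Iroquois homeobox factor, followed with an H3K4me3 fold enrichment of 53.7 and a pol II fold enrichment of 93.8, and the nearest B2B peak lay 569 kb away. The values at MGAT4A were 52.2 for H3K4me3, 34.3 for pol II and 68.4 for H3K27ac in A549, with a Rad21 peak of 9.61 in B2B.

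Further members came from among the 10 highest H3K4me3 fold enrichments. AUTS2, a regulator of neuronal development, had A549-only marks at 2 promoters, with H3K4me3 fold enrichments of 51.9 and 32.8 and H3K27ac fold enrichments of 107 and 45.4. CNTN1, a neuronal adhesion molecule, had an H3K4me3 fold enrichment of 51.3 and a pol II fold enrichment of 23.2. PDE3B, a phosphodiesterase that breaks down cyclic AMP, had 50.3 for H3K4me3, 98.4 for pol II and 21.0 for Med1 in A549.

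The longest member peak, of 10541 bp, lay at ALDH1A1, which oxidizes retinal and other aldehydes. Its H3K4me3 fold enrichment was 16.8, its pol II fold enrichment was 65.6 and its Med1 fold enrichment was 15.7, and 2 further ALDH1A1 starts carried member peaks of 7.27 and 6.91. AKR1B10 had a peak of 8159 bp with an H3K4me3 fold enrichment of 19.99 and a pol II fold enrichment of 86.3. Its A549 fold enrichments were 49.7 (Med1), 9.66 (JunB), 11.4 (Jun) and 4.01 (JunD), and no B2B list had a peak within 1 kb. ABCC2 had values of 28.2 for H3K4me3, 62.7 for pol II, 18.2 for Med1 and 12.3 for Jun in A549, and again no B2B peak within 1 kb.

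**Figure D2:**
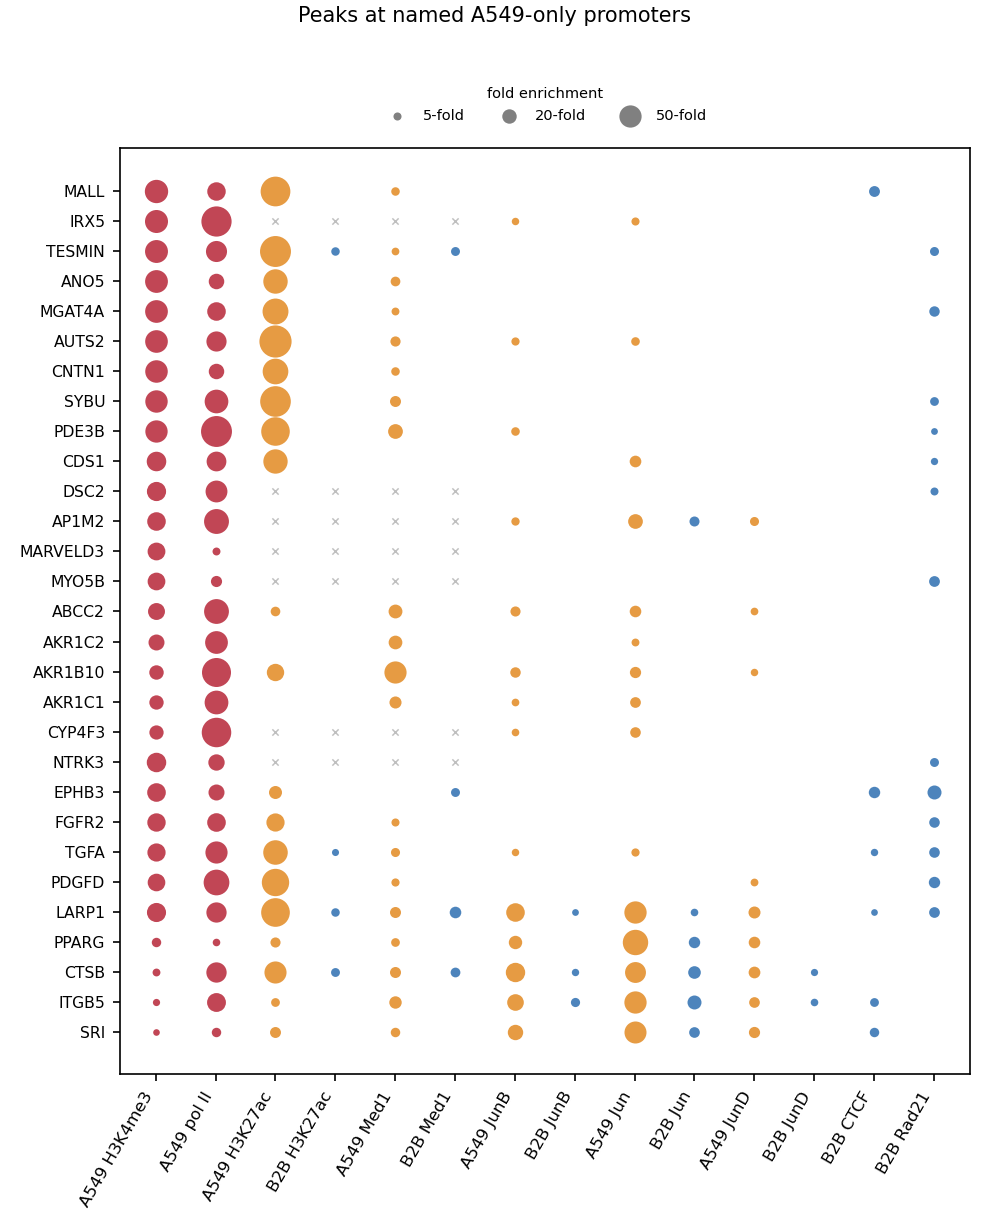
Fold enrichments of every target at promoters of the 9 genes with the strongest H3K4me3 peaks, of junction, NRF2 and growth factor genes and of the 5 with the strongest Jun-family binding, with the area of a dot growing with the fold enrichment, red for A549 H3K4me3 and pol II, orange for other A549 targets, blue for B2B targets and crosses where a target was not compared beyond chromosome 12. The B2B columns are mostly empty for the strongest H3K4me3 peaks such as IRX5, while LARP1, PPARG, CTSB, ITGB5 and SRI, with the strongest Jun binding, also hold a B2B Jun dot.

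To describe the A549-only promoters further, the targets that the rule did not use were scored within 1 kb of each start. The rule still bears on them, because members lacked B2B H3K4me3 and pol II peaks and shared promoters had both. B2B shares and differences between the lines can be tilted by this choice, and by how much was not tested. Members were compared with the 8065 shared promoters and with 22870 coding starts that had no H3K4me3 or pol II peak in either line.

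H3K27ac followed the A549 marks at most members. An A549 H3K27ac peak lay at 874 of 944 members on chromosomes 1 to 12, or 92.6% (90.7 to 94.1), against 97.8% of all A549 coding promoters and 98.5% of shared ones. The difference between members and shared promoters was −5.91 percentage points (−7.78 to −4.36). It was −0.0728 points (−0.773 to 0.102) at starts with a CpG ratio of at least 0.6. It was −5.43 (−12.3 to 1.44) at H3K4me3 fold enrichments under 15 and −0.283 (−2.73 to 1.47) from 15 to 30, splits chosen after the data were examined. Starts with no mark in either line had an A549 H3K27ac peak in 2.86%. A B2B H3K27ac peak lay at 222 of the 944 members, or 23.5% (20.9 to 26.3), where the share of all A549 coding promoters was 87.2% and that of unmarked starts 3.86%. The paired difference between the lines was 69.1 points (65.9 to 71.9) at members and 0.526 points (0.274 to 0.798) at shared promoters. Both differences are bound to the choice of these sets by B2B H3K4me3 and pol II. HDAC7, which encodes a histone deacetylase, had the strongest B2B H3K27ac peak at a member, with a fold enrichment of 13.7 beside 27.3 in A549.

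Med1 was found at fewer members than H3K27ac in A549. An A549 Med1 peak lay at 366 members, or 38.8% (35.7 to 41.9), against 76.8% of all A549 coding promoters and 87.6% of shared ones. In B2B, Med1 lay at 206 members, or 21.8% (19.3 to 24.6), where the share of all A549 coding promoters was 83.1%. The A549 share exceeded the B2B share by 16.9 points (13.1 to 20.8) at members, whereas at shared promoters A549 minus B2B was −7.66 points (−8.54 to −6.80). These differences too are bound to the choice of the sets by B2B marks. The local background under Med1 peaks at members was alike in the lines, 2.07 reads in A549 and 2.27 in B2B.

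**Figure D3:**
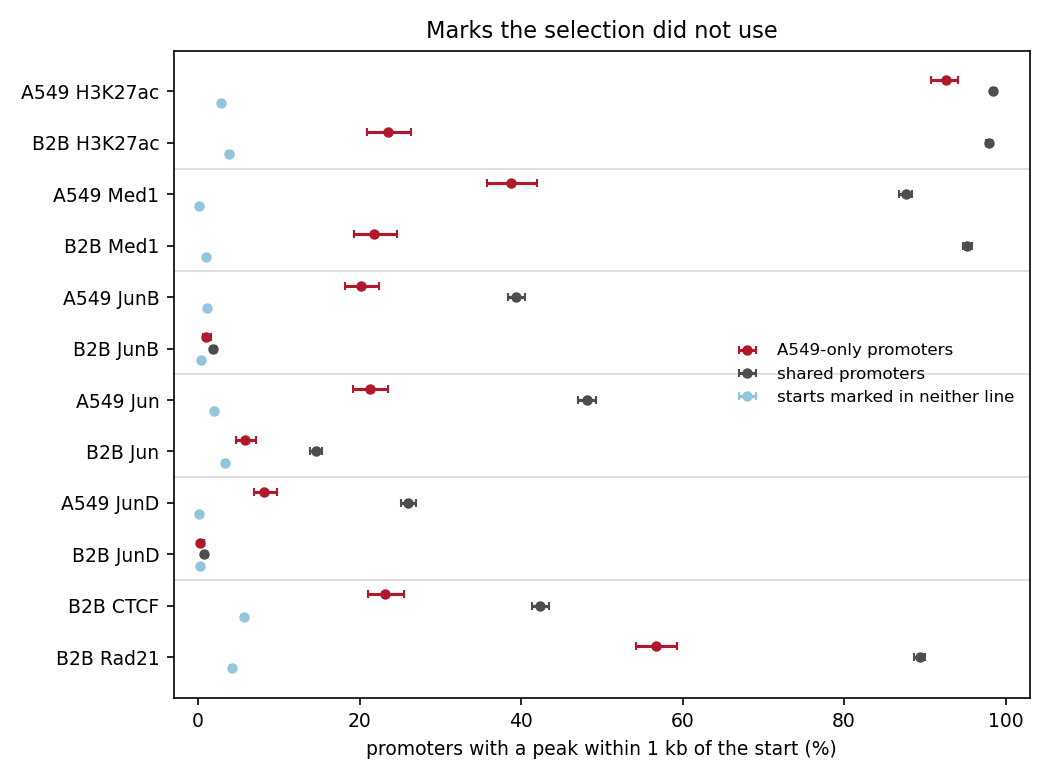
Percent of A549-only promoters, shared promoters and unmarked coding starts with a peak of each target within 1 kb, with Wilson 95% intervals. At A549-only promoters the A549 H3K27ac share of 92.6% stands near that of shared promoters, while the other shares of these promoters lie between 0.282% for B2B JunD and 56.8% for B2B Rad21.

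The Jun-family proteins occupied a minority of the A549-only promoters. In A549, JunB lay at 287 of 1420, or 20.2% (18.2 to 22.4), Jun at 302, or 21.3% (19.2 to 23.5), and JunD at 116, or 8.17% (6.85 to 9.71). Over all A549 coding promoters, JunB lay at 33.8%, Jun at 40.4% and JunD at 21.1%. The difference between members and shared promoters came to −19.2 points in JunB (−21.5 to −16.8), −26.9 in Jun (−29.2 to −24.4) and −17.9 in JunD (−19.5 to −16.0). At H3K4me3 fold enrichments under 15 the JunB difference was −1.53 (−7.88 to 4.86), and at CpG ratios under 0.6 it was 0.333 (−5.06 to 5.86) in JunB and −3.97 (−7.92 to 0.269) in JunD. At least 1 of the 3 proteins lay at 385 members (27.1%) and all 3 lay at 88 (6.20%). The shares of JunB and Jun at members stood above those of unmarked starts, which were 1.067% and 1.99%.

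In B2B the same starts had few Jun-family peaks. JunB lay at 13 members, or 0.915% (0.536 to 1.56), Jun at 82, or 5.77% (4.68 to 7.11), and JunD at 4, or 0.282% (0.110 to 0.722). The shares of all A549 coding promoters were 1.63%, 11.9% and 0.689%. The paired difference between the lines at members was 19.3 points in JunB (17.3 to 21.4), 15.5 in Jun (13.5 to 17.5) and 7.89 in JunD (6.57 to 9.41). With the longer list of each pair cut to the length of the shorter one by p-value, the JunB difference was 5.85 points (4.68 to 7.201), and it was 16.0 in Jun and 6.90 in JunD. Shared promoters had wider gaps between the lines, 37.5 points in JunB, 33.6 in Jun and 25.2 in JunD, so the excess in A549 was not particular to members. Of the 83 members with any Jun-family peak in B2B, 76 also had one in A549. The local background at JunB peaks of members was 14.4 reads in B2B and 2.63 reads in A549.

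The members with all 3 Jun-family proteins and the highest summed fold enrichment were starts of LARP1, PPARG, CTSB, ITGB5 and SRI. LARP1 had A549 fold enrichments of 34.3 in JunB, 50.2 in Jun and 13.3 in JunD at a start with an H3K4me3 fold enrichment of 36.4, and 7 of its 14 annotated starts were marked in B2B. The PPARG start shown above had 65.7 for Jun, 16.9 for JunB and 12.2 for JunD but only 7.502 for H3K4me3, and B2B had a Jun peak of 11.8 there. ITGB5 had a Jun fold enrichment of 50.1 in A549 and 18.7 in B2B beside an H3K4me3 value of 3.62. SRI had a Jun value of 49.0 in A549 and 10.2 in B2B beside an H3K4me3 value of 2.79. CTSB, a lysosomal protease, had a Jun value of 43.9 in A549 and 14.9 in B2B at a start with 4.64 for H3K4me3, and 25 of its 29 starts were marked in B2B. In these 5, the H3K4me3 peak was strong at LARP1 and weak at the others. The strongest B2B Jun peak at a member, with 25.7, lay at a KANK1 start with no A549 Jun-family peak.

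Jun-family peaks within 50 kb but outside the promoters were also counted. An A549 JunB peak lay in that range at 58.2% of members and 52.5% of shared promoters, a difference of 5.74 points (2.94 to 8.50). For A549 Jun the shares were 66.8% and 68.4%, and the interval of the difference ran from −4.23 to 1.071. B2B Jun lay near 58.2% of members and 75.9% of shared promoters, a difference of −17.8 points (−20.5 to −15.1).

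CTCF and Rad21 were compared in B2B only, and these targets in A549 were not analysed here. A CTCF peak lay at 329 members, or 23.2% (21.0 to 25.4), against 38.7% of all A549 coding promoters and 5.67% of unmarked starts. Rad21 lay at 806 members, or 56.8% (54.2 to 59.3), against 85.3% of all A549 coding promoters, 89.4% of shared promoters and 4.17% of unmarked starts. Members exceeded unmarked starts by 52.6 points for Rad21 (49.99 to 55.2) and by 17.5 points for CTCF (15.4 to 19.8). The CpG ratio was under 0.6 at 92.8% of unmarked starts and 31.2% of members, and these 2 differences were not split by it. At 508 members (35.8%) Rad21 stood without CTCF, at 298 (21.0%) they stood together, and at 31 (2.18%) CTCF stood alone. The median local background of the Rad21 peaks was 16.5 reads at members, 17.5 at shared promoters and 8.998 at unmarked starts, and its part in the shares was not tested. Among members, Rad21 lay at 84.1% of the 395 with a B2B H3K27ac peak and at 46.2% of the 1025 without. Taking all B2B lists outside the rule, 931 members (65.6%) had at least 1 B2B peak within 1 kb and 489 (34.4%) had none.

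OSGIN1, a growth inhibitor induced by oxidative stress, had the strongest Rad21 peak at a member, with a fold enrichment of 34.6 beside a CTCF value of 20.6. The strongest CTCF peak, 30.6, lay at CIDEB, a lipid droplet protein gene, where Rad21 had no peak in B2B. The core of the CTCF motif, searched on both strands as CC followed after any 3 bases by AGGNGGC, stood within 100 bp of the summit for 35.0% of CTCF peaks at members and for 14.6% at shared promoters. Over all A549 coding starts, 4.37% of windows of that length held the core.

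The A549-only promoters held both CpG-rich and CpG-poor starts. The CpG ratio, the count of CG dinucleotides over that expected from base composition within 500 bp of the start, had a median of 0.728 at members, 0.793 at shared promoters and 0.250 at unmarked starts. It was under 0.6 at 443 members, or 31.2% (28.8 to 33.7), against 13.8% of all A549 coding promoters and 10.3% of shared ones. Members exceeded shared promoters by 20.9 points (18.5 to 23.5). Most members thus had a CpG-rich start as MGAT4A does, and a minority resembled ABCC2, with a ratio of 0.164, and AKR1B10, with 0.239.

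CpG-poor and CpG-rich members differed in most readouts. The H3K4me3 fold enrichment had a median of 10.2 at CpG-poor and 28.3 at CpG-rich members. JunB lay at 34.3% of CpG-poor and 13.8% of CpG-rich members, a difference of 20.5 points (15.6 to 25.5). Jun in A549 lay at 34.5% and 15.3%, a difference of 19.3 points (14.4 to 24.3), and Jun in B2B at 15.3% and 1.43%. Rad21 went the other way, with 31.6% at CpG-poor and 68.2% at CpG-rich members, a difference of −36.6 points (−41.6 to −31.2). A549 H3K27ac lay at 75.4% of CpG-poor and 99.8% of CpG-rich members. Med1 in A549 lay at 39.1% and 38.6%, and the interval of that difference ran from −6.15 to 7.39 points.

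At CpG-poor starts JunB lay at 34.3% of A549-only and 33.98% of shared promoters, and the interval of the difference ran from −5.06 to 5.86 points. At CpG-rich starts the shares were 13.8% and 40.01%. The Jun shares at CpG-poor starts were 34.5% at members and 43.2% at shared promoters. Med1 at CpG-poor starts remained lower at members, with 39.1% against 64.8%.

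**Figure D4:**
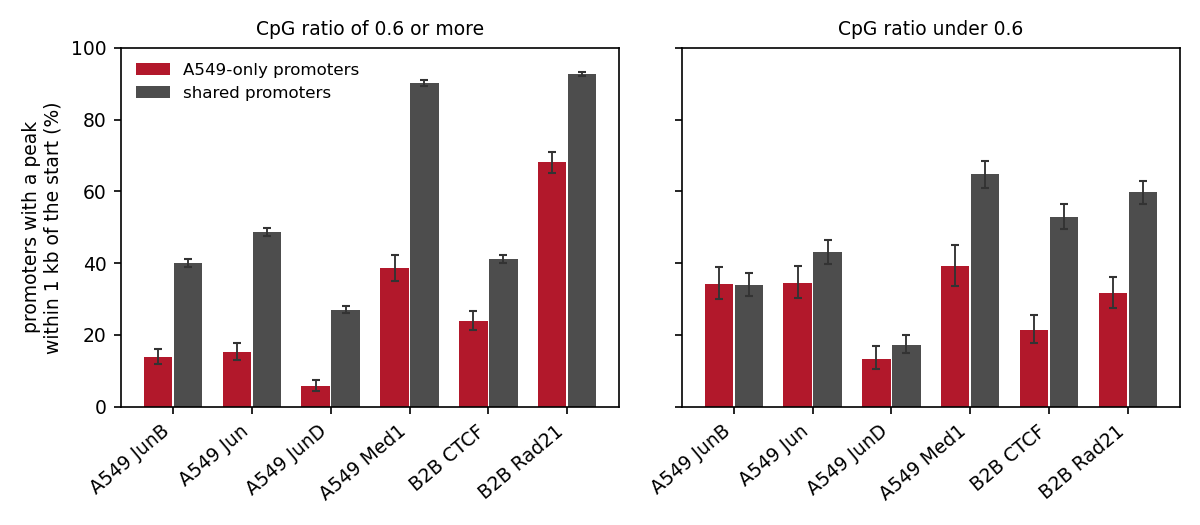
Percent of A549-only and shared promoters with a peak of each target within 1 kb, split at a CpG ratio of 0.6, with Wilson 95% intervals. The JunB bars are of like height at CpG-poor starts, with 34.3% and 33.98%, and apart at CpG-rich starts, with 13.8% against 40.01%.

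The AP-1 heptamer was slightly more frequent around members than around shared promoters. It lay within 500 bp of 155 member starts (10.9%), against 8.77% of all A549 coding promoters, 8.395% of shared promoters and 14.7% of unmarked starts. The difference from shared promoters was 2.52 points (0.880 to 4.35), and at CpG-rich starts alone it was −2.12 points (−3.49 to −0.454). Members with a JunB peak held the heptamer in 33.4% and those without in 5.21%. Within 100 bp of the JunB summit, the heptamer stood at 44.4% of 275 peaks of members, 19.3% of 2942 peaks of shared promoters and 57.9% of peaks away from starts. For Jun these shares were 38.8%, 15.8% and 52.8%. A related element, CCGGAAG, the core bound by ETS factors, lay within 500 bp of 13.7% of members and 31.6% of shared promoters.

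To ask whether the A549-only promoters were additional starts of genes marked in both lines or the starts of genes marked in A549 alone, all annotated starts of each gene were scored in B2B. The rule partly fixed the outcome, because member peaks had no B2B H3K4me3 or pol II peak within 1 kb. Only 1 coding start was annotated for 268 of the 1318 genes (20.3%). The shares are therefore a description. For 1097 of 1318 genes, or 83.2% (81.1 to 85.2), no annotated start lay within 1 kb of a B2B H3K4me3 or pol II peak. The other 221 genes had another start marked in B2B. The 245 promoters of these genes had a median H3K4me3 fold enrichment of 10.4, and the 1175 promoters of the other genes had 25.5. A549 JunB lay at 33.1% of the former and 17.5% of the latter, a difference of 15.5 points (9.49 to 21.98). B2B Jun lay at 17.6% and 3.32%, a difference of 14.2 points (9.82 to 19.6).

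Several well-known genes fell into the group with another start marked in B2B. ERBB2, a growth factor receptor, had a member start with an H3K4me3 fold enrichment of 5.68 and a Jun fold enrichment of 42.9, while 6 of its 11 starts were marked in B2B and the nearest B2B peak lay 1.57 kb away. KRT8, a keratin of simple epithelia, entered with a peak of 180 bp and an H3K4me3 value of 3.39, with 7 of its 10 starts marked in B2B. GCLC, a subunit of the enzyme that begins glutathione synthesis, entered through a start with 9.74 for H3K4me3, 33.1 for Jun and 25.8 for Med1, and 5 of its 7 starts were marked in B2B. Such members do not stand for a gene without promoter marks in B2B.

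The genes of the A549-only promoters were then counted in lists of known function, chosen with earlier results of these data known. The counts are given beside the share over all coding genes on chromosomes 1 to 19, of which 1318 of 17898, or 7.36%, had an A549-only promoter.

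Genes that respond to NRF2, the activator of antioxidant and detoxification genes, had A549-only promoters in 11 of 30. They were ABCC2, AKR1B10, AKR1B15, AKR1C1, AKR1C2, CYP4F3, CYP4F11, GPX2, GCLC, ALDH3A1 and OSGIN1. After ABCC2, with an H3K4me3 fold enrichment of 28.2, came AKR1C2, a steroid-reducing aldo-keto reductase, with 24.9. The value was 19.5 at CYP4F3, a fatty acid hydroxylase whose pol II fold enrichment was 89.3. GPX2, a glutathione peroxidase of epithelia, had 10.7 for H3K4me3 and 43.4 for pol II. A Jun-family peak lay at 9 of these 11 genes in A549, against 359 of all 1318 member genes. B2B Jun lay at 0 of the 11, and at 79 of 1318. Med1 lay at 6 of the 6 on chromosomes 1 to 12, against 353 of 882 member genes, and all 11 had a CpG ratio under 0.6 at their strongest start, against 381 of 1318. AKR1C1 and AKR1C2, and likewise AKR1B10 and AKR1B15, are near-identical copies between which reads can be shared, and how such reads were handled was not given in the sources used here.

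HOX genes, which set position along the body axis, had A549-only promoters in 15 of 39. HOXA3 led with an H3K4me3 fold enrichment of 43.4 and an H3K27ac value of 100.9, and HOXD8 followed with 35.9 and 66.2. A CpG ratio under 0.6 at the strongest start was found at 0 of the 15, against 381 of all 1318 member genes. A Jun-family peak lay at 4 of the 15 in A549, near the share of all member genes, 359 of 1318. H3K27ac lay at all 14 that could be scored on chromosomes 1 to 12, where 822 of 882 member genes had it.

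Regulators of endoderm and lung lineages had A549-only promoters in 6 of 19, and 16 of the 19 had an A549 promoter. ONECUT1, a liver and pancreas homeobox factor, had an H3K4me3 fold enrichment of 43.1. SOX17, an early endoderm factor, had 27.7. CDX2, an intestinal homeobox factor, had 14.97 with a weak pol II peak of 3.87, and GATA4 had 14.0.

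Epithelial junction and polarity genes had A549-only promoters in 14 of 42. CDS1, a phospholipid enzyme listed with this set, had an H3K4me3 fold enrichment of 38.2, and DSC2, a desmosomal cadherin, had 36.7. AP1M2, an adaptor for sorting to the basolateral membrane, had 34.3 with a Jun value of 20.8 in A549 and 8.73 in B2B. EPCAM, an epithelial adhesion molecule, had 29.9 with 26.8 for Jun and 15.9 for JunB in A549. A Jun-family peak lay at 6 of the 14 in A549, against 359 of all 1318 member genes. Rad21 lay at 8 of the 14, near its share of 768 of 1318, and B2B H3K27ac at 5, against 373 of 1318.

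Growth factor and receptor genes had A549-only promoters in 12 of 58. NTRK3, a neurotrophin receptor, had an H3K4me3 fold enrichment of 37.9, EPHB3, an ephrin receptor, had 34.5 and FGFR2 had 33.6. None of these 3 had a Jun-family peak within 1 kb in A549, whereas 5 of the 12 genes of the list did, against 359 of all 1318 member genes. TGFA, a ligand of the EGF receptor, had 32.9 for H3K4me3 and 49.6 for pol II, with weak A549 peaks of JunB (4.01) and Jun (5.28).

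Neuronal and neuroendocrine genes had A549-only promoters in 8 of 27. NRXN2, a synaptic adhesion molecule, had an H3K4me3 fold enrichment of 38.5 with 7.32 for pol II and a Rad21 value of 12.2 in B2B. NTS, which encodes the peptide neurotensin, had 23.3 for H3K4me3, 34.9 for pol II and 9.17 for Jun in A549, and its start was CpG-poor, with a ratio of 0.0933. CHGA, a protein of secretory granules, had 15.8 for H3K4me3 and 4.76 for pol II. The strongest of these peaks thus came with both strong and weak pol II.

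Basal airway cell genes had 4 of 19 and mucin and secretory genes 5 of 33. NGFR, a neurotrophin receptor of basal cells, had an H3K4me3 fold enrichment of 27. TP63, which encodes a transcription factor listed with basal cells, had 6.10 at a start with 5.28 for pol II. Which TP63 isoform begins at that start was not examined. GDF15, a secreted stress cytokine, had 29.98 for H3K4me3 and 45.7 for pol II. Of the secretory products, SFTPD, a surfactant protein, had 26.8, AGR2, a disulfide isomerase of mucus cells, had 16.8, MUC5B had 6.14 and MUC5AC had 3.66.

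The other lists are given by their counts. Clustered protocadherins, adhesion molecules with a promoter for each variable exon, had 7 of 53, and CTCF lay at 4 of the 7 in B2B, against 315 of all 1318 member genes. PCDHAC1 led them with an H3K4me3 fold enrichment of 40.3, with 5.02 for CTCF and 13.3 for Rad21, and reads can be shared between members of these clusters. There were plasma protein genes 5 of 45, drug and aldehyde metabolism genes 4 of 44, simple epithelial keratins 1 of 9 and mesenchymal genes 1 of 31. Solute carriers had 27 of 346, or 7.80%. The oncogenes chosen by the study had 40 of 544, or 7.35%, near the share of all coding genes, with WT1 at the top with an H3K4me3 fold enrichment of 45.2. Among genes with an A549 promoter, the oncogene share was lower, 9.28% (6.89 to 12.4) against 12.8% of all such genes. On that base the counts were 7 of 11 for protocadherins, 5 of 7 for plasma proteins and 4 of 10 for drug and aldehyde metabolism. They were 1 of 3 for keratins, 1 of 14 for mesenchymal genes, 27 of 176 for solute carriers, 4 of 138 for zinc fingers, 1 of 74 for ribosomal proteins and 0 of 21 for interferon genes. At 29 of the 40 oncogenes no annotated start was marked in B2B. Zinc finger genes of chromosome 19 had 4 of 249 and ribosomal protein genes 1 of 78. Interferon response genes had 0 of 37, which allows a share of up to 9.41% by the Wilson interval.

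**Figure D5:**
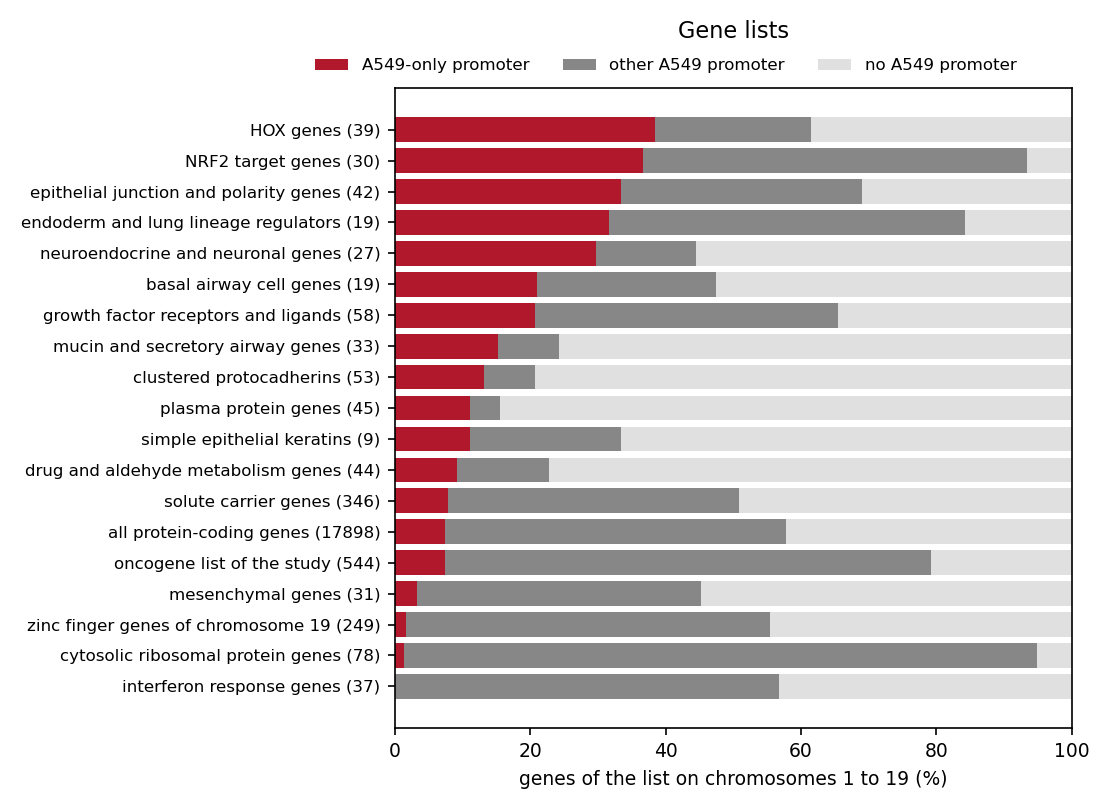
Stacked bars of the coding genes of each list on chromosomes 1 to 19, in percent, split into genes with an A549-only promoter (red), with another A549 promoter (dark grey) and with no A549 promoter (light grey), with the number of genes in parentheses. All coding genes stand at 7.36%. HOX, NRF2 and junction genes stand at 38.5%, 36.7% and 33.3%, and ribosomal and chromosome 19 zinc finger genes at 1.28% and 1.61%.

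A549-only promoters were found on all 19 chromosomes. They made up from 6.19% of the A549 coding promoters on chromosome 13 to 14.9% on chromosome 8. The densest windows of 500 kb held 9 genes with an A549-only promoter among 27 coding genes on chromosome 19, and 9 among 35 on chromosome 9. The chromosome 9 window held EGFL7, AJM1, PTGDS, ABCA2, NPDC1, ENTPD2, SAPCD2, DPP7 and DIPK1B. Part of the HOXA cluster on chromosome 7 gave the fourth, with 6 of 11 genes.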

How the data were processed

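ChIP-seq peak lists of A549 and B2B cells were analysed, 16 lists in all from 36 samples, of which 4 input samples were not analysed here. The submitters' processing notes name Bowtie2 2.4.4, SAMtools 1.13, MACS2 2.2.7.1 and hg38, and the study's methods state that the authors merged the 2 replicates of each target before calling peaks. The options and the control of the peak caller and the read depth were not given in the sources used here. For each peak the authors deposited a score, which was 10 times the −log10 q rounded down, a ratio, called fold enrichment, of the summit pileup to the local background, and −log10 of the p-value and of the q-value. The lowest deposited −log10 q was 2.00.

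Start sites of protein-coding transcripts were taken from GENCODE release 44. Intervals were intersected with a minimum overlap of 1 bp in Python 3.11.15 with NumPy 2.4.6, shares were given Wilson and differences Newcombe 95% intervals with SciPy 1.17.1. Matplotlib 3.10.9 drew the plots. Newcombe intervals were paired over promoters for comparisons between the lines. Interval functions were tested on simulated data and against bedtools 2.31.1. Because replicates were pooled, no test over samples was possible and no p-value is given. A549 lists of pol II, H3K27ac and Med1 and the B2B list of Med1 held no peaks past a position on chromosomes 20, 13, 15 and 15.

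The members and gene lists were chosen with earlier results of these data known. Named promoters were the 10 genes with the highest H3K4me3 fold enrichment, up to 5 genes of each list by the same value, the 5 longest peaks, the 5 with all 3 Jun-family proteins and the highest summed fold enrichment, the highest B2B H3K27ac (5), Jun, CTCF and Rad21 (3 each), the 3 densest runs and the 3 peaks on each side of the 1 kb limit. ERBB2, EPCAM, GATA4 and GPX2, the other NRF2 genes and the fourth run were named after their values were seen. Alternatives changed the q-value, the list lengths, the overlap, the distances, the starts used and the pol II condition. The splits by CpG ratio and fold enrichment, the peak over the start and the solved background were chosen after the data were examined. Some promoters that the naming rule chose are not reported here.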

Additional observations from a re-analysis of the deposited data

Results flagged for a closer look

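On chromosomes 20 to 22 and X, which the definition of the members did not use, 323 of 1436 A549 H3K4me3 peaks within 1 kb of a coding start (22.5%) had no B2B H3K4me3 and no B2B pol II peak within 1 kb. The pol II condition in A549 was not applied there, because that list ended on chromosome 20. Without the same condition, 2757 of 14020 peaks (19.7%) on chromosomes 1 to 19 were of this kind. This result is given because it is a signal in data outside the comparisons above.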

How the results depend on the processing

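No paired analysis was possible because the authors merged the replicates before calling peaks, and for the same reason no replicate could be left out. Across 111 alternatives of 16 results, 102 kept their direction and their side of the threshold. The count of 1464 members changed to 676 when the A549 pol II peak had to cover at least 50% of the H3K4me3 peak, and lay between 1037 and 1867 under the other alternatives. The share of genes with no start marked in B2B was 77.8% when B2B peaks were sought within 5 kb. The remaining changes came from splits chosen after the data were examined, and their cause was not tested. Differences between members and shared promoters at CpG ratios under 0.6 were 0.333 points for JunB (−5.06 to 5.86) and −3.97 for JunD (−7.92 to 0.269). At ratios of at least 0.6 they were −2.12 points for the AP-1 heptamer (−3.49 to −0.454) and −0.0728 for A549 H3K27ac (−0.773 to 0.102). At H3K4me3 fold enrichments under 15 they were −1.53 points for JunB (−7.88 to 4.86) and −5.43 for H3K27ac (−12.3 to 1.44), and from 15 to 30 they were −0.283 for H3K27ac (−2.73 to 1.47). Depth behind the lists is unknown, which limits every statement that a mark had no B2B peak.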
